A study of Mus musculus with 63 samples.

Results

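Of the 63 libraries, 23 came from intestinal tumours that were sequenced whole, and these were grouped by the reporter with the highest value, which was EYFP in 15 tumours and tdimer2 in 8. No undivided tumour had hrGFP or mCerulean highest. The values of these 4 reporter rows chose the groups, so they are given as a description with no test, and they were kept out of every fit. The comparison addresses whether the colour of a lineage label goes with a difference in the expression of the tumour's own genes.

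Tumours came from 2 Apchet;Confetti mice, 1 female (10 undivided tumours) and 1 male (13), in which a tamoxifen-inducible Cre driven by the epithelial Villin promoter deleted 1 copy of Apc and switched on the Rosa26 Confetti reporter. Both mice received 4 mg tamoxifen when at least 8 weeks old and 200 mg/kg of the mutagen ENU 10 days afterwards. The source labels SI10 and SI20 mark where in the bowel a tumour was taken. With 1 mouse of each sex, sex and mouse cannot be told apart, and the tumours of 1 mouse are not separate animals, so p-values measure the spread between tumours of these mice. The labels do not say which of the undivided tumours the study treated as single clones. The other 40 libraries were pieces a and b of 20 divided tumours, of which 16 pieces had EYFP and 13 tdimer2 highest. They share the mice with the undivided tumours but no library. Colour went with the piece letter there, with 11 of 16 EYFP pieces lettered b and 9 of 13 tdimer2 pieces lettered a, and the letters name pieces that were dissected apart. A colour estimate from the divided pieces therefore carries part of any difference between pieces a and b. Where such an estimate is printed, the one with the piece letter as a further covariate follows if it differs enough. That means in sign or by over 1.5 times, and this fit was chosen after seeing the data.

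Confetti is a Cre-dependent cassette in the ubiquitously active Rosa26 locus, in which random recombination leaves a cell expressing 1 of 4 fluorescent proteins, and all descendants inherit that choice. EYFP and mCerulean are both derivatives of jellyfish GFP that differ at few residues, hrGFP comes from another organism, and tdimer2 is a tandem red protein derived from coral DsRed. Such labels are used to follow clones, which assumes that the colours mark cells without altering them. In the intestine, loss of APC leaves beta-catenin active in epithelial cells and keeps WNT target genes on. Stroma and immune cells in a tumour do not express Villin and so should carry no colour.

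The locus that holds the reporter lies on chromosome 6, where Gt(ROSA)26Sor (ENSMUSG00000086429), a long noncoding RNA gene, spans chr6:113043843-113055336 on the minus strand in GRCm39. Its sequence is shown because this gene was among those with the smallest p of the colour comparison. Transgenes at Rosa26 are customarily placed at an XbaI site in the first intron. The point at which the allele used here was inserted is not given in the sources used here. Of 6 matches of the XbaI sequence TCTAGA, which reads the same on both strands, in the 11494 bases of the gene, the one nearest exon 1 lay 177 bases beyond the nearest annotated end of that exon and within the first intron of 19 of the 25 spliced transcripts. TCTAGA was present in 3.71% of all windows of 126 bases on chromosome 6, so a match is common. The window chr6:113052932-113053057 is printed 5′ to 3′ on the gene's strand with that site in capitals.
Gt(ROSA)26Sor, first intron: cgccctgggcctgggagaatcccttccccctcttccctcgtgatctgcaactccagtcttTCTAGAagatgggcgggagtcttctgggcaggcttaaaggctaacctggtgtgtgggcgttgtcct

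The reporter rows separated the groups widely. In the 15 EYFP tumours the EYFP row ran from 3700 to 34774 normalised counts with a median of 9044, against 75.7 to 612 in the tdimer2 tumours. In the 8 tdimer2 tumours the tdimer2 row ran from 3138 to 5622 with a median of 4099, against 51.9 to 999 in the EYFP tumours. EYFP differed between the mice within its own group, with 9044 to 34774 in the female and 3700 to 9782 in the male mouse. The tdimer2 row spanned a narrower range, 3226 to 5622 in the female and 3138 to 4382 in the male mouse. The sum of the 4 rows had a median of 10535 in EYFP tumours and 5510 in tdimer2 tumours. Because EYFP and mCerulean are so alike, the split of reads between these rows is uncertain.

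The assignment was clear in 22 of 23 tumours, in which the highest row was at least 4 times the second. The exception was male tumour 1, with tdimer2 at 3424 and hrGFP at 1417, a ratio of 2.42. The next lowest ratio was 6.57. Colour was spread over both mice, with 7 female and 8 male EYFP tumours and 3 female and 5 male tdimer2 tumours (Fisher's exact test, two-sided, p = 1.0), and over both source labels, with 8 SI10 and 7 SI20 EYFP tumours and 4 of each for tdimer2 (p = 1.0). Tables this small could show only a strong association.

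**Figure D1:**
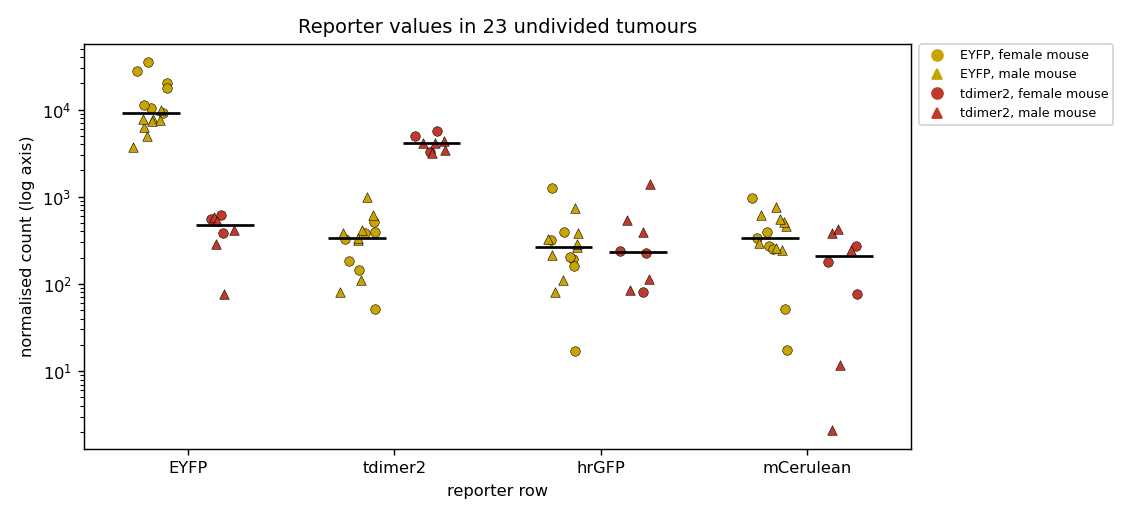
Normalised count (log axis) of each reporter row in the 23 undivided tumours. Points are tumours, circles from the female and triangles from the male mouse, coloured by the highest row, and bars are group medians. EYFP tumours sit at 3700 or above in the EYFP row and tdimer2 tumours at 3138 or above in the tdimer2 row.

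Epithelial markers were at high levels in tumours of both colours, and the shares of cell types were not estimated. The mean log2 level of 14 epithelial markers, such as Epcam, ran from 13.73 to 14.77 in EYFP and from 13.85 to 14.41 in tdimer2 tumours. The markers of stroma, endothelium and immune cells were lower but detected, and no listed marker was at 0 in all 23 libraries. Total normalised counts ran from 26552400 to 45903000. The most frequent low value, taken as the worth of 1 read, gave an estimated 14714400 to 40049900 reads assigned to genes. None of 5 library values passed an exact permutation test of colour within mice (two-sided, lowest adjusted p = 0.437): the total, the number of genes above 0, and the percentages taken by Rn18s, by mitochondrially encoded genes and by the 100 highest genes. The share of Rn18s, a ribosomal RNA that poly(A) selection should deplete, had a median of 5.14% in EYFP and 2.17% in tdimer2 tumours. It reached 14.4% in EYFP and 19.3% in tdimer2 tumours. Male tumour 18, a tdimer2 tumour, had that 19.3% and the fewest genes above 0, 18540.

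No gene passed the test between EYFP and tdimer2 tumours. With mouse as a covariate, 0 of 16507 genes (0%) had an adjusted p under 0.05 in limma, and the lowest adjusted p was 0.999. At an unadjusted p under 0.05 there were 370 genes (2.24%), 178 higher in EYFP (1.08%) and 192 higher in tdimer2 tumours (1.16%). The median estimate over all genes was 0.01 on the log2 scale. In no gene (0%) did the values of the 15 EYFP and the 8 tdimer2 tumours fail to overlap. The same libraries gave 3333 genes (20.2%) between the mice and 27 (0.164%) between SI10 and SI20 at the adjusted threshold. Mouse divides the libraries more evenly (10 and 13) than colour does (15 and 8).

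The precision of these estimates sets what a count of 0 covers. The 95% interval of the colour difference lay within 1 log2 unit of 0 for 12247 genes (74.2%) and within 0.5 for 6836 (41.4%). Coverage depended on level, since the interval lay within 1 log2 unit for 29.6% of the genes with means of 10 to 50 and for 94.1% of those from 500 to 5000. In the other genes the interval reached beyond 1 log2 unit, and 250 genes had an estimate beyond 1 log2 unit in either direction without passing.

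The same question was put to whole profiles. After centring each mouse, colour held 1.19% of the variance along the first principal component and 2.23% along the second, and at most 7.77% along any of the first 5 (exact permutation of colours within mice, lowest adjusted p = 0.786). Over all 16507 genes colour held 3.39% of the within-mouse variance (exact permutation p = 0.914). Tumours of 1 colour were compared with tumours of different colours in the same mouse. The mean correlation of centred profiles was -0.10 over 62 same-colour pairs and -0.08 over 61 different-colour pairs, a difference of -0.02 (exact permutation within mice, two-sided, p = 0.626).

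**Figure D2:**
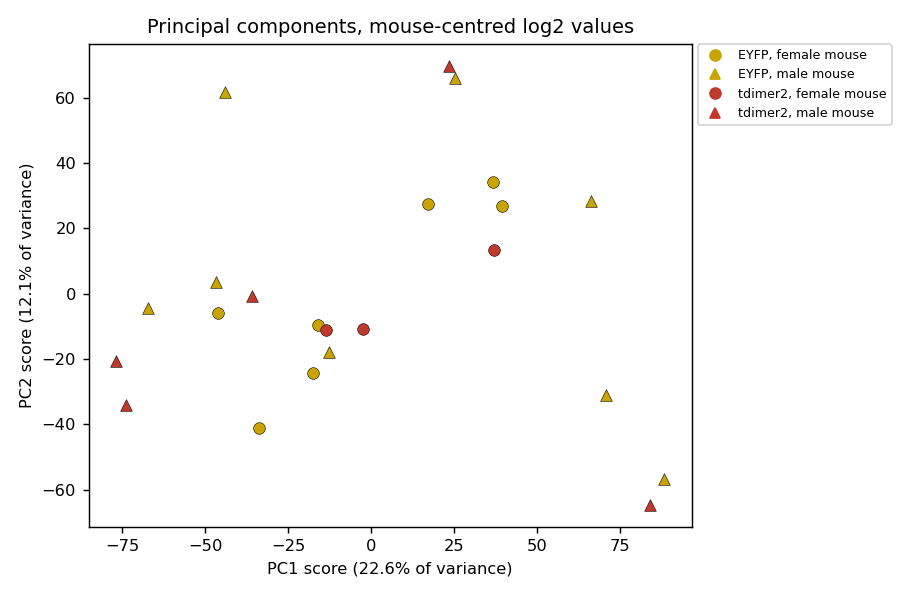
Scores of the 23 undivided tumours on the first and second principal components (arbitrary units) of log2 values centred by mouse, over 16507 genes. EYFP and tdimer2 tumours are intermingled along both axes, of which colour held 1.19% and 2.23% of the variance.

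Since no gene passed, the 5 genes with the smallest p in each direction are named, and none of them is a call. Gt(ROSA)26Sor, the noncoding gene at the reporter locus, was one of them. Its normalised count ran from 90.5 to 271 (median 171) in EYFP tumours and from 44.0 to 165 (median 85.0) in tdimer2 tumours, so the groups overlapped, although all 15 EYFP tumours lay above the tdimer2 median. In the male mouse they did not overlap: the 5 tdimer2 tumours had 44.0, 58.5, 73.3, 79.9 and 90.2 and the 8 EYFP tumours 90.5 to 271, a separation in this direction seen in 25 genes (0.151%). In the female mouse the 3 tdimer2 tumours had 103, 151 and 165 and the EYFP tumours 114 to 245. The log2 difference was 0.72 (SE 0.20, unadjusted p = 0.00145, limma adjusted p = 0.999).

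The divided pieces gave an estimate for Gt(ROSA)26Sor in the same direction, 0.41 (SE 0.16, 95% interval 0.07 to 0.74, unadjusted p = 0.0186, limma adjusted p = 0.526). This too did not pass. The sum of the reporter rows had a higher median in EYFP tumours of both mice. It was 18053 against 5830 in the female and 8247 against 5470 in the male mouse. The Gt(ROSA)26Sor difference was 0.38 in the female and 0.96 in the male mouse. The part of reporter transcripts in the Gt(ROSA)26Sor row was not tested. The gene overlaps Thumpd3 and Setd5 on the other strand. Thumpd3, a tRNA methyltransferase gene, differed by 0.14 (95% interval -0.17 to 0.45), and Setd5, which encodes a SET domain protein, by 0.00. Of 9 genes tested at and around the locus, Gt(ROSA)26Sor alone had an unadjusted p under 0.05, and the median of the 9 was 0.08.

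The other genes with the smallest p and higher values in EYFP tumours were Bin1, which encodes a membrane-bending BAR domain protein (log2 difference 0.51, SE 0.16), 2 processed pseudogenes, Gm10108 (0.67, SE 0.16) and Gm8210 (1.18, SE 0.34), and Gm45663 (1.15, SE 0.33), a locus annotated as a transcript to be experimentally established. Reads of processed pseudogenes can be shared with their parent genes, so these values are uncertain. Bin1 ran from 407 to 794 in EYFP and from 261 to 616 in tdimer2 tumours. In the divided pieces its estimate was -0.14 (SE 0.16), and -0.06 (SE 0.17) with the piece letter.

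Towards tdimer2 the smallest p belonged to Tdrd1, a tudor domain gene of the germline piRNA pathway. It was low throughout, from 0 to 43.8 (median 6.98) in EYFP and from 12.9 to 254 (median 45.5) in tdimer2 tumours, and all 8 tdimer2 tumours lay above the EYFP median. The log2(value + 1) difference was -3.09 (SE 0.70, unadjusted p = 0.000205, limma adjusted p = 0.999). In the divided pieces it was 0.46 (SE 0.65), and -0.12 (SE 0.65) with the piece letter as a covariate.

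Igfbp2, which encodes a secreted protein that binds insulin-like growth factors, ran from 22.7 to 427 (median 101) in EYFP and from 210 to 1594 (median 402) in tdimer2 tumours. The groups overlapped, and the top value belonged to female tumour 10, while the other tdimer2 tumours reached 611. The difference was -1.94 (SE 0.47) in undivided tumours and -0.54 (SE 0.51, 95% interval -1.58 to 0.51) in divided pieces. Cnnm3, of a family linked to magnesium transport, Pdia5, a protein disulfide isomerase, and Myrip, which links Rab27 to myosin, followed at -0.51 (SE 0.16), -0.36 (SE 0.12) and -1.26 (SE 0.41). By mouse these differences were -0.14, -0.25 and 0.22 in the female and -0.77, -0.44 and -2.27 in the male mouse. In divided pieces they were -0.16 (SE 0.12), -0.16 (SE 0.10) and -0.11 (SE 0.24).

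**Figure D3:**
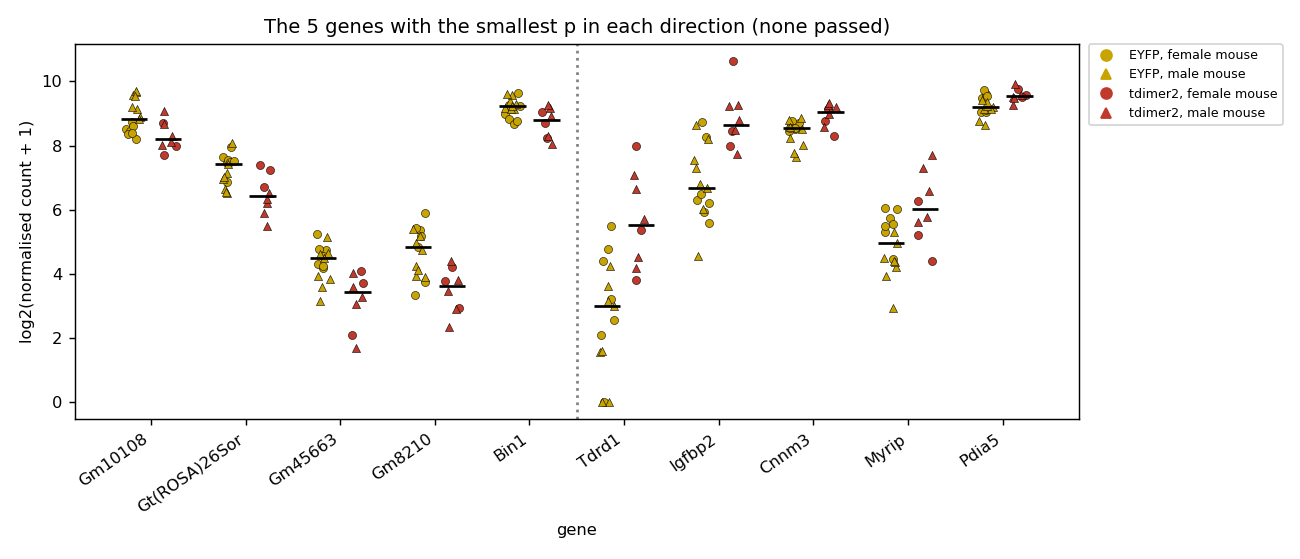
log2(normalised count + 1) of the 5 genes with the smallest p in each direction, higher in EYFP left of the dotted line and higher in tdimer2 right of it. Points are tumours, circles female and triangles male, and bars are medians. All 10 pairs of groups overlap and none passed the adjusted threshold.

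A fixed set of 38 genes, Gt(ROSA)26Sor among them, was named by role, with earlier results of these data known. None passed, 21 had a higher estimate in EYFP tumours, and 25 had a 95% interval within 1 log2 unit of 0. An unadjusted p under 0.05 was found for 4 of the 38, beside 2.24% of all genes tested. These were Gt(ROSA)26Sor, Lgr5, Mki67 and Cdkn1a. Lgr5, the receptor that marks crypt base stem cells, ran from 115 to 1214 (median 524) in EYFP and from 177 to 3081 (median 1153) in tdimer2 tumours, with wide overlap. Its difference was -1.09 (SE 0.47, unadjusted p = 0.0302, limma adjusted p = 0.999), and -0.47 (SE 0.26, unadjusted p = 0.0798) in divided pieces. With the piece letter as a covariate its unadjusted p there was 0.0434 (limma adjusted p = 0.410).

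Mki67, the gene of the proliferation marker Ki-67, had a difference of -0.61 (SE 0.24, unadjusted p = 0.0198, limma adjusted p = 0.999). In divided pieces it was -0.49 (SE 0.24, unadjusted p = 0.0498, limma adjusted p = 0.559). With the piece letter as a covariate its unadjusted p was 0.0135 (limma adjusted p = 0.327). In undivided tumours the mice went different ways. In the male mouse the 5 tdimer2 tumours had 1695, 2962, 3044, 3152 and 3220 and the 8 EYFP tumours 808 to 2115. In the female mouse the 3 tdimer2 tumours had 1387, 1741 and 3595, on either side of the EYFP tumours at 1986 to 3068. The difference was -1.19 in the male and 0.24 in the female mouse, with an interaction of unadjusted p = 0.00181 and limma adjusted p = 0.466.

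Cdkn1a, which encodes the cell cycle inhibitor p21, ran from 6065 to 10971 in EYFP and from 4378 to 8852 in tdimer2 tumours, a difference of 0.33 (SE 0.14, unadjusted p = 0.023, limma adjusted p = 0.999). In divided pieces it was 0.02 (95% interval -0.16 to 0.19), and 0.04 with the piece letter. Further genes of the APC and WNT pathway had an unadjusted p above 0.05 in undivided tumours. The WNT antagonist Notum ran from 1220 to 14720 in EYFP and from 2345 to 7676 in tdimer2 tumours, with a difference of -0.34 (SE 0.32). The direct target Axin2 had -0.11 (SE 0.27), the cyclin gene Ccnd1 -0.15 (SE 0.22), Myc -0.09 (95% interval -0.50 to 0.32) and Apc itself -0.10 (95% interval -0.49 to 0.30). In divided pieces Apc had -0.31 (95% interval -0.60 to -0.02, unadjusted p = 0.0396, limma adjusted p = 0.541). Notum, Axin2, Ccnd1 and Myc had an unadjusted p above 0.05 there too.

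For genes of the tumour's other cells and of stress the intervals were of unequal use. Epcam, an epithelial adhesion gene, differed by -0.03 (95% interval -0.35 to 0.29), the proteasome subunit gene Psmb5 by 0.02 (-0.23 to 0.28) and the chaperone gene Hspa5 by -0.14 (-0.43 to 0.16). In contrast, the collagen gene Col1a1 had an interval from -2.06 to 0.91 and the stem cell gene Olfm4 one from -1.63 to 2.38. Both intervals include several-fold differences. Fewer cells of a type and less RNA per cell cannot be told apart in bulk tumours.

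**Figure D4:**
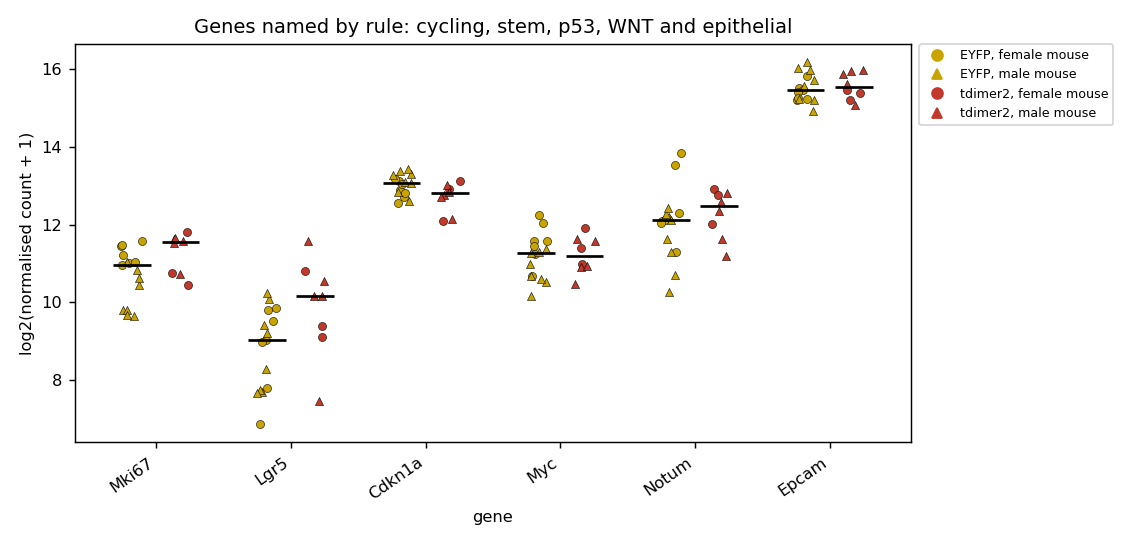
log2(normalised count + 1) of 6 genes named by role, for each undivided tumour by colour. Circles are female and triangles male, and bars are medians. In the male mouse Mki67 is at 808 to 2115 in EYFP tumours and at 1695 to 3220 in tdimer2 tumours, and the Epcam range of tdimer2 tumours lies inside that of EYFP tumours.

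In 26 gene lists, none of 499 genes tested passed, and 17 (3.41%) had an unadjusted p under 0.05 against 2.24% of all genes. Proliferation and crypt genes were on the tdimer2 side. Of 25 proliferation genes 24 had a lower estimate in EYFP tumours, 9 of them at an unadjusted p under 0.05, with a median of -0.33 beside 0.01 over all genes. These 9 were Mki67, Top2a, Plk1, Ccnb1, Cdc20 and the replication helicase genes Mcm3, Mcm4, Mcm5 and Mcm7, from -0.61 to -0.33. In the divided pieces the median of the list was 0.03, with 13 of 25 genes higher in EYFP pieces, and -0.07 with 6 of 25 higher once the piece letter was a covariate.

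Of 18 intestinal stem cell genes 17 had a lower estimate in EYFP tumours, with a median of -0.28, and 17 of 18 did so in the divided pieces, with a median of -0.19. Besides Lgr5 they included the transcription factor gene Sox9 (-0.52, SE 0.34) and the hyaluronan receptor gene Cd44 (-0.53, SE 0.37). WNT targets, which share Lgr5 and Sox9 with that list, had a median of -0.21 and 3 of 24 genes higher in EYFP. The values of single tumours overlapped: the mean log2 level of the stem cell list was 9.73 to 11.19 in EYFP and 9.83 to 11.37 in tdimer2 tumours, and that of the proliferation list 9.70 to 11.15 and 10.08 to 10.99. Genes of 1 list vary together within a tumour, so such counts are not counts of independent observations.

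Enteroendocrine and enterocyte genes had higher estimates in EYFP tumours over both mice, though not in the female mouse alone. Of 23 enteroendocrine genes 20 had a higher estimate in EYFP tumours (median 0.35), among them the hormone gene Cck (0.75, SE 0.34), and so did 21 of 22 enterocyte genes (median 0.21). In divided pieces these medians were -0.10 and 0.01, and 0.03 and 0.07 with the piece letter. Goblet, Paneth and tuft cell lists had medians of 0.06, 0.07 and 0.08. Their medians in divided pieces were -0.07, -0.31 and -0.08, and -0.03, -0.17 and -0.07 with the piece letter. Of 22 p53 target and apoptosis genes 19 had a higher estimate, with a median of 0.13, and of 0.04 in divided pieces (0.02 with the piece letter). Cdkn1a, Ccng1 and Mdm2 were among those at an unadjusted p under 0.05. The 27 oxidative stress genes, which code for antioxidant enzymes and their regulators, had a median of 0.14, with the lipid peroxidase gene Gpx4 at 0.39 (SE 0.17).

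Lists of protein quality control and of innate and antigen presentation genes were next. The unfolded protein response (27 genes) had a median of -0.04, cytosolic heat shock and chaperone genes (19) -0.12, the proteasome (27) 0.03, the interferon response (23) 0.18, MHC class I presentation (18) 0.11 and MHC class II presentation (10) 0.27. In divided pieces these medians were, in the same order, -0.01, -0.03, 0.10, 0.14, 0.04 and 0.02. With the piece letter they were 0.01, -0.10, 0.11, 0.30, 0.08 and -0.04. Higher estimates in EYFP pieces were then found for 22 of 23 interferon genes, and for 16 of 23 without the letter. No gene of these lists had an unadjusted p under 0.05 in undivided tumours. Intervals within 1 log2 unit of 0 were found for 26 of 27 unfolded protein response genes and all 27 proteasome genes, but for 9 of 23 interferon and 2 of 10 class II genes.

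Stromal lists had medians below 0, of -0.23 for fibroblasts and smooth muscle (20 genes) and -0.22 for endothelium (15 genes), and of -0.49 and -0.36 in divided pieces, where every one of these genes had a lower estimate in EYFP pieces with or without the piece letter. In undivided tumours the mean log2 level of both lists was lower in EYFP tumours of the male mouse alone, by -0.53 and -0.39, against 0.34 and 0.03 in the female mouse. Their mean log2 level ranged widely in both colours, for fibroblasts and smooth muscle from 6.38 to 10.38 in EYFP and from 5.89 to 9.85 in tdimer2 tumours, and for endothelium from 5.90 to 8.63 and from 6.14 to 8.53. Macrophage and neutrophil genes ran from 5.78 to 8.57 and from 5.49 to 9.07, and lymphocyte and plasma cell genes from 6.26 to 8.17 and from 6.17 to 8.97. Medians of these immune lists were above 0, at 0.08 and 0.20, with 13 of 20 and 16 of 19 genes higher in EYFP tumours. In divided pieces they were -0.21 and -0.10, with 2 of 20 and 3 of 18 genes higher in EYFP. With the piece letter they were -0.33 and -0.09. The part of these cells in the other lists was not tested. MYC targets had a median of -0.10, MAPK output -0.12, fetal and regenerative epithelium -0.01, epithelium 0.06 and genes of proximal and distal small intestine 0.24. The last list pools genes of both regions, from -0.95 (Osr2) to 1.11 (Pdx1), so its median gives no regional direction. Its mean log2 level differed by -0.03 in the female and 0.41 in the male mouse.

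**Figure D5:**
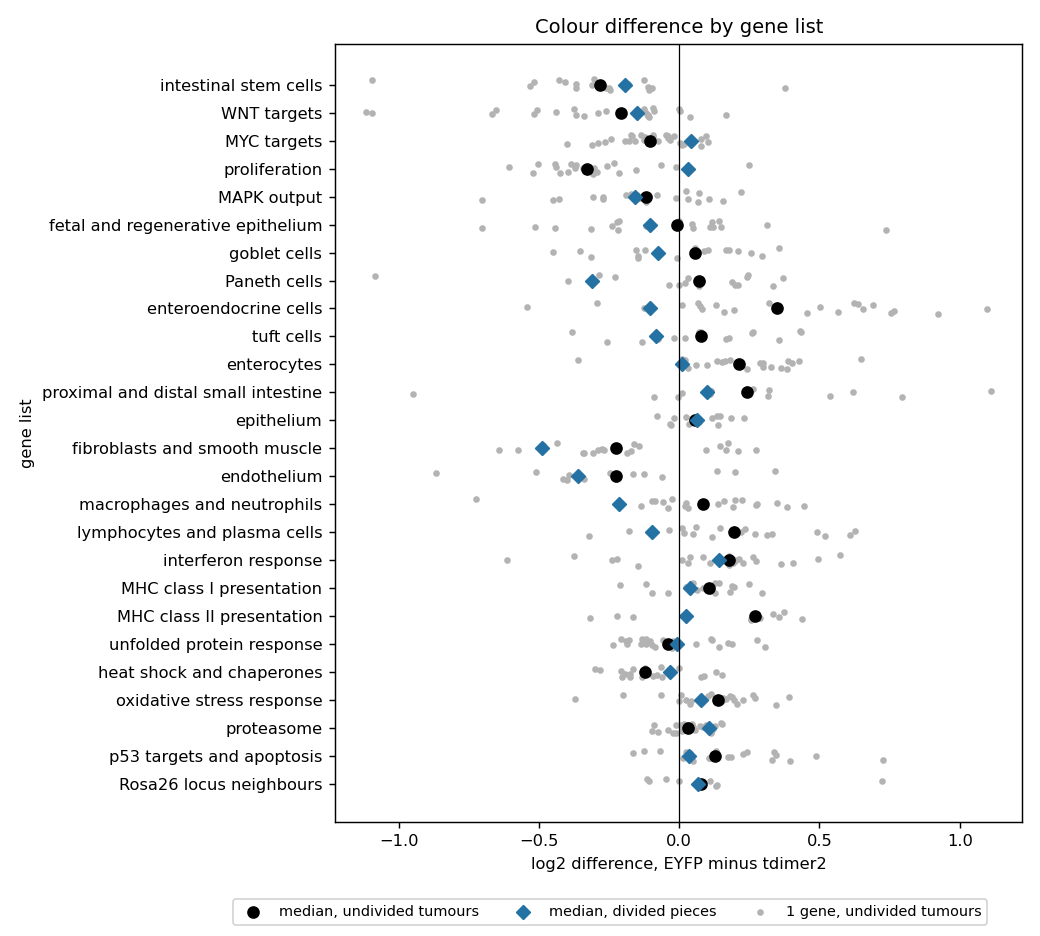
log2 difference, EYFP minus tdimer2, by gene list. Grey points are single genes in undivided tumours, black circles their median and blue diamonds the median in divided pieces. Medians in undivided tumours range from -0.33 (proliferation) to 0.35 (enteroendocrine cells), against 0.03 and -0.10 in divided pieces, which turn to -0.07 and 0.03 with the piece letter as a covariate.

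The mice differed in which lists leaned which way. The difference in mean log2 level between colours had the same sign in both mice for 8 of 26 lists and opposite signs for 18. Stem cell, WNT, MYC and proliferation lists were lower in EYFP tumours of both mice, by -0.20, -0.13, -0.10 and -0.15 in the female and by -0.36, -0.42, -0.10 and -0.41 in the male mouse. The p53 target, oxidative stress, epithelium and Rosa26 neighbour lists were higher in EYFP tumours of both mice, by 0.30, 0.07, 0.07 and 0.11 in the female and by 0.09, 0.14, 0.07 and 0.10 in the male mouse. The Rosa26 neighbour list of 9 genes includes Gt(ROSA)26Sor itself, which differed by 0.38 in the female and 0.96 in the male mouse. The value of that list is therefore not one of the neighbours alone. Paneth cell genes differed by -1.29 in the female and 0.88 in the male mouse, enteroendocrine genes by -0.16 and 0.70, enterocyte genes by -0.36 and 0.59 and MHC class II genes by -0.49 and 0.61.

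Tested gene by gene, 0 of 16507 interactions of colour with mouse (0%) passed, the lowest adjusted p was 0.164, and 1614 (9.78%) had an unadjusted p under 0.05. Of the 47 genes named for their p or by role, 26 had opposite signs in the mice and 3 an unadjusted interaction p under 0.05. These were Mki67, Myrip and Lyz1, the Paneth cell lysozyme gene, which differed by -1.14 in the female and 0.82 in the male mouse (interaction unadjusted p = 0.00774, limma adjusted p = 0.466). The female mouse held only 3 tdimer2 tumours, and female tumour 5 had 110905 for Lyz1, where the other tdimer2 tumours reached 58729.

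The male mouse alone had 1 gene at an adjusted p under 0.05, Gm20431 (limma adjusted p = 0.00334), outside the rule for named genes and named after its values were seen. It ran from 14.1 to 451 in the 8 male EYFP tumours and was listed at 0 in all 5 male tdimer2 tumours. In the female mouse it was listed at 0 in 5 of 7 EYFP tumours and at 0, 147 and 234 in the 3 tdimer2 tumours. Gm20431 overlaps Ube2v1 and Peds1 on the same strand, so its reads may be split between them, and a 0 can be a failed estimate.

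In the 29 divided pieces the colours were compared with the imbalance of piece letters given above. Of 16416 genes, 0 (0%) had an adjusted p under 0.05 with mouse as a covariate and pieces of 1 tumour correlated (0.223), and 1465 (8.92%) had an unadjusted p under 0.05. With the piece letter as a covariate these were 0 and 1934. Of the 10 genes named as the 5 smallest p in each direction in undivided tumours, 8 had an estimate of the same sign in divided pieces, and of 363 genes at an unadjusted p under 0.05 tested in both sets, 275 (75.8%) did, beside 64.6% of all 16179 genes tested in both. With the piece letter these shares were 81.8% and 66.2%, and 8 of the 10 genes again kept their sign, with Tdrd1 now on the same side as in undivided tumours and Gm10108 (-0.09, SE 0.19) on the other. Genes are not independent, both sets came from the same mice, and this share is a description. Only 22 of the 29 pieces had a highest reporter at least 4 times the second and 7 did not, so colour was less certain there than in undivided tumours.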

How the data were processed

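RNA of each tumour was made into stranded mRNA libraries. According to the submitters' processing notes, the tools were FastQC 0.11.9, Trimmomatic 0.39, STAR 2.7.7a, Picard 2.27.3, Salmon 1.9.0 and DESeq2, with the GRCm39 build. The authors deposited gene-level values divided by library factors, a normalised signal that is not whole counts, so tests used log2(value + 1) and fold changes of low genes are understated. Here, genes with a mean of at least 10 were fitted with limma 3.58.1 (R 4.3.3, empirical Bayes with trend), with mouse as a covariate and Benjamini-Hochberg adjustment over all genes tested. The 4 reporter rows were left out. Pieces of 1 tumour were treated as correlated. Permutation tests enumerated all 154440 assignments of colours within mice (scipy 1.17.1). The fits were tested on simulated data. Named genes were the 5 smallest p in each direction and 38 fixed genes. The members, gene lists and tests were chosen with earlier results of these data known. Coordinates are from Gencode M39 on GRCm39. Alternatives changed the pseudocount, filter, scaling, covariates, mouse, reporter ratio and libraries included. Results of some listed genes are not reported here. Whether counting used strand is not given in the sources used here.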

Additional observations from a re-analysis of the deposited data

Results flagged for a closer look

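Among the 8 tdimer2 tumours, 83 measures were examined for a lone value far from the rest, and 11 had one. The cut passes about 1 in 20 only for normally distributed values. Counts and percentages were taken here without logs and can be skewed, so 11 cannot be set against that rate. The measures are not independent, and several lone values belong to the same tumour.

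Male tumour 18 had 18540 genes above 0 (others 20581 to 22162), an Rn18s share of 19.3% (others 0.561 to 7.24%), a mean log2 level of MAPK output genes of 7.85 (others 9.56 to 10.42) and of fetal and regenerative genes of 9.07 (others 10.62 to 11.44), and Anxa1, a gene of the latter list, at 1476 (others 4061 to 6012). Female tumour 5 had Lyz1 at 110905 (others 16152 to 58729), the plasma cell gene Jchain at 27830 (others 1582 to 7147) and the MHC class II gene H2-Aa at 5191 (others 413 to 2613). Female tumour 10 had Igfbp2 at 1594 (others 210 to 611). Male tumour 4 had Thumpd3 at 1752 (others 738 to 1212) and male tumour 1 had hrGFP at 1417 (others 81.4 to 546).

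In 1 gene, a long noncoding RNA known by the identifier ENSMUSG00000121109, the colours did not overlap in either mouse and went opposite ways. In the female mouse it ran from 3.16 to 10.2 in EYFP and from 13.5 to 22.1 in tdimer2 tumours, and in the male mouse from 9.28 to 47.6 and from 2.89 to 8.46. It was chosen from all genes for this pattern, and the difference was not tested.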

How the results depend on the processing

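No gene was called between the colours in undivided tumours under 2 other pseudocounts, a mean of at least 50, 2 other scalings, no covariate, mouse with source label, no trend, the female mouse alone or clear reporters, nor when any of the 23 libraries was left out (range 0 to 0). Without a filter the count was 1, Mup14, listed at 0 in all 15 EYFP tumours and at 0 to 8.42 in tdimer2 tumours, one of a family of near-identical genes. In the male mouse alone it was 1, Gm20431. Genes at an unadjusted p under 0.05 numbered 260 to 916 with 1 library left out, 916 without female tumour 5 and 632 without female tumour 4, both tdimer2, 181 without a covariate, 659 without a filter and 1403 in the male mouse alone, against 370. The causes were not tested. Scaling libraries to the same sum moved the median of all genes to -0.11, and 46 of 498 genes at an unadjusted p under 0.05 were then higher in EYFP. For divided pieces the count was 0 under every alternative, including with 1 piece left out (0 to 0). With the tumour as a replicate block, in which only the 6 tumours with 1 piece of each colour compare colours directly, it was 0, with 1147 genes at an unadjusted p under 0.05 against 1465, and 1934 with the piece letter as a covariate (0 called, chosen after seeing the data), 815 with clear reporters, 864 in the female and 914 in the male mouse alone. Undivided tumours have no pairing. Over 48 named genes and up to 36 settings each, 1616 of 1725 estimates kept their sign. In 23 of these settings only 1 library was left out, so most signs could hardly change. Between the mice, which share no tumour, 26 of 47 named genes had opposite signs. Gt(ROSA)26Sor stayed between 0.38 and 0.96 and Mki67 between -1.19 and 0.24. Group sizes, with 3 tdimer2 tumours in the female mouse, limit what these comparisons can show.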
